A study of Rattus norvegicus with 39 samples.

Results

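Rats fed ad libitum (AL) were compared here at both ends of their adult life, by RNA-seq of the cerebral cortex at 6 months (6 m AL) and at 28 months (28 m AL). The comparison used 6 of the 39 libraries of the series, 3 per age, chosen by the age and diet in their titles: pools 1, 2 and 3 for 6 m AL and pools 7, 8 and 9 for 28 m AL. All animals were male BN rats (substrain BN/SsNOlaHSD), which received the same unsupplemented chow ad libitum and were singly housed after early adulthood. Each library is RNA of 2 rats mixed before sequencing, so a replicate is a pool, and pools vary less than single rats would. Rats under caloric restriction (CR) of the same ages, with 3 pools per age, are used only to ask whether a change with age differed between the diets. The question of the comparison is which genes change with age in the cortex of freely fed rats. Differential expression (DE) means an adjusted p under 0.05 from the edgeR quasi-likelihood (QL) test, corrected by Benjamini-Hochberg over the 17230 genes tested. Levels are CPM, the reads of a gene relative to all reads on genes, scaled by TMM, and every log2 FC (log2 fold change, given with the SE, or standard error, of the fit) is 28 m AL over 6 m AL unless another group is named.

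Ageing of the rodent cortex has been studied mainly through a few systems. Heat shock proteins are chaperones that bind unfolded proteins and are switched on by HSF1 through heat shock elements in their promoters. Immediate early genes such as Arc and the Egr family are transcribed within minutes of synaptic activity. Clock genes keep daily time through activators that bind E-boxes and repressors such as Rev-erb-α. Glial cells respond with their own genes: Gfap in astrocytes, and MHC class II and complement genes in microglia.

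The 6 m AL libraries had 2841883 to 4084231 reads on genes, and those of 28 m AL had 3109488 to 4537079. Between 27.5% and 33.2% of the reads of a library did not align, with overlapping ranges at the 2 ages. No pair of pools of a group agreed within sampling noise (chi-square per degree of freedom from 8.65 to 18.3). Gene names were taken from the tables of the study, which name 1672 genes, each of them called in at least one of the study's comparisons. A count over named genes is therefore not independent evidence, and the same count over all named genes is given as its background.

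In 28 m AL the inducible chaperone gene Hspa1b, the activity-regulated transcription factor gene Egr3, the clock output factor gene Hlf, the synaptic scaffold gene Shank1 and the astrocyte filament gene Gfap were lower than in 6 m AL, and the sulfotransferase gene Sult1a1 was higher. The number of DE genes was 17 of 17230 (0.0987%), with 15 lower (0.0871%) and 2 higher (0.0116%) in 28 m AL. An unadjusted p under 0.05 was found for 1970 genes (11.4%), 914 higher (5.3%) and 1056 lower (6.13%), and for 28.8% of the named genes. The pools of the 2 ages did not overlap at all for 2859 genes (16.6%), 1454 higher (8.44%) and 1405 lower (8.15%). Of the 17 DE identifiers, 7 carry the biotype miRNA in the tables of the study, and 1 of these is named Rn28s, a ribosomal RNA gene. The other 10 identifiers are 8 that fell and 2 that rose, with Hspa1b listed under 2 of them.

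**Figure D1:**
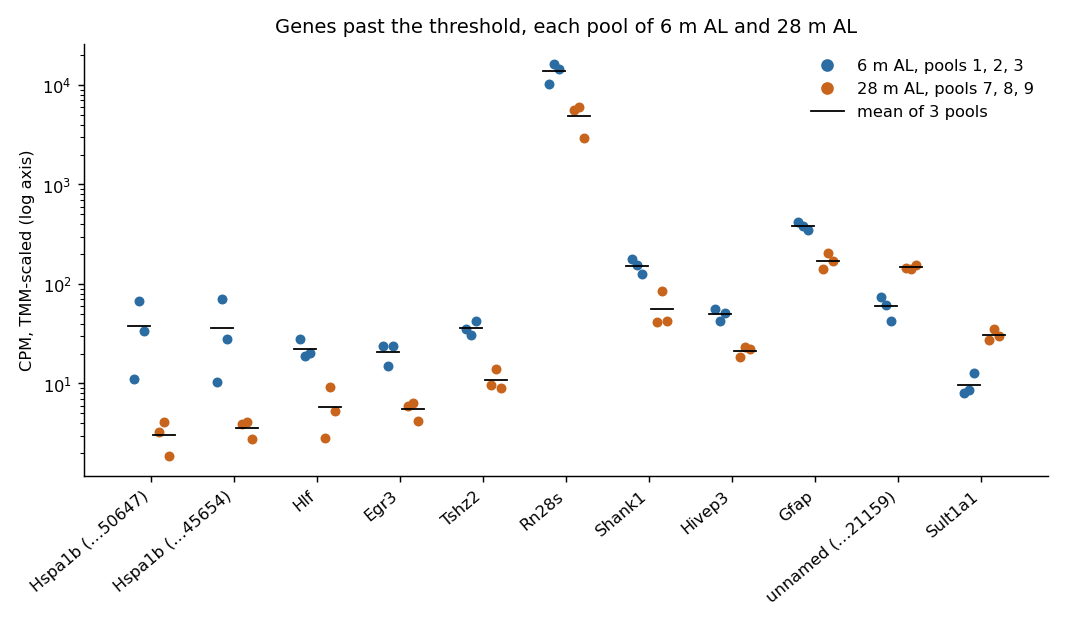
CPM (log axis) of the 10 DE identifiers without the biotype miRNA and of Rn28s, with 1 point per pool and a line at the mean of the 3 pools of 6 m AL (blue) or 28 m AL (orange). The pools of the 2 ages do not overlap for any of them, and the blue points of both Hspa1b identifiers are the most spread, from 10.4 to 70.4 CPM.

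The ribosomal RNA gene Rn28s (ENSRNOG00000050614) was at 10320, 16400 and 14410 CPM in pools 1, 2 and 3, and at 5596, 6075 and 2928 CPM in pools 7, 8 and 9. It fell by 1.49 on the log2 scale (SE 0.25, adjusted p = 0.0312, edgeR QL test). All libraries had been depleted of ribosomal RNA before sequencing, so the value is what was left after that step. The other 6 DE identifiers of this biotype went with it. In each pool Rn28s and 2 of them had nearly equal counts (43611 to 43972 in pool 1, 12647 to 12750 in pool 9), and the remaining 4 formed a second such set (12932 to 13239 in pool 1, 3699 to 3848 in pool 9). The log2 FCs of all 7 lay between -1.49 and -1.43, so they are not 7 independent genes. Together they took 4.5% to 7.08% of the reads on genes in 6 m AL and 1.42% to 2.84% in 28 m AL. Of 47 tested identifiers with this biotype, 23 had an unadjusted p under 0.05, all of them lower in 28 m AL.

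Over the 1672 named genes log2 FCs ran from -3.60 to 1.73, and the lowest was that of a heat shock gene. Hspa1b encodes the stress-inducible Hsp70, and is listed under 2 identifiers. Multiply mapping reads were not kept, so any reads shared by 2 copies would be missing, and the level of each identifier is uncertain. ENSRNOG00000050647 was at 11.1, 68.0 and 33.7 CPM in pools 1, 2 and 3 and at 3.27, 4.06 and 1.85 CPM in pools 7, 8 and 9. The old pools were all low and close together, while the young pools ranged widely, with pool 2 highest. This copy of Hspa1b fell by 3.60 on the log2 scale (SE 0.533, adjusted p = 0.029). The other copy, ENSRNOG00000045654, was at 10.4, 70.4 and 28.1 CPM in 6 m AL against 3.88, 4.06 and 2.78 CPM in 28 m AL, and fell by 3.31 (SE 0.536, adjusted p = 0.0312). In bulk RNA, fewer cells that express a gene and less RNA per cell cannot be told apart, here or below.

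Of the 9 tested members of the heat shock list, the 2 Hspa1b identifiers were DE, and 5 had an unadjusted p under 0.05, all lower, against 17% of all named genes and 6.13% of all genes. The median log2 FC of the list was -0.54, against -0.050 over the named genes and 0.015 over all genes. Hsph1, the gene of the Hsp110 co-chaperone, was at 286, 377 and 514 CPM in 6 m AL and at 218, 255 and 233 CPM in 28 m AL. Its pools did not overlap, but its log2 FC of -0.73 (SE 0.2, adjusted p = 0.181) did not pass the threshold. The same held for Dnajb5, an Hsp40 family gene, with a log2 FC of -0.82 (adjusted p = 0.143), and for Ahsa1, the gene of an Hsp90 activator, with -0.54 (adjusted p = 0.36). The remaining members were on both sides of 0, from -0.25 for the small heat shock protein gene Cryab to 0.29 for the co-chaperone gene Stip1.

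The promoter of Hsph1 is shown because it is the one tested member below 0 in which a heat shock element was found. Promoters are those of RefSeq on GRCr8, from 250 bases before to 50 bases after a gene's start, and 6 of the 8 heat shock genes had one. The element was searched as GAANNTTC on either strand. It was in 2 of these 6 promoters (33.3%), of Hsph1 and of Hspe1, against 8.59% of all 33469 promoters, and this is a description of letters without a test. The stretch from chr12:10427301-10427380 (plus strand) is written 5′ to 3′ with the element in capitals, which begins 31 bases before the start.
Hsph1: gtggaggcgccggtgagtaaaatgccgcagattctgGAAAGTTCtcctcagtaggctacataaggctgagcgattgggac
The promoter of Hsph1 also held an E-box. Hspa1b and Cryab are not in the promoter table.

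Every tested immediate early gene had a log2 FC below 0. Among 12 tested members, 1 was DE and 7 had an unadjusted p under 0.05, all lower (17% of the named genes), with 6 whose pools did not overlap (20.3% of the named genes were lower without overlap). The median log2 FC was -0.94. Egr3 encodes a zinc finger transcription factor induced by neuronal activity. It was at 23.9, 14.97 and 23.6 CPM in 6 m AL and at 5.92, 6.38 and 4.17 CPM in 28 m AL, and fell by 1.92 (SE 0.305, adjusted p = 0.0312).

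The other immediate early genes did not pass the threshold after adjustment. Arc, whose protein acts in AMPA receptor trafficking, was at 311, 249 and 203 CPM in 6 m AL against 143, 122 and 78.9 CPM in 28 m AL, without overlap, and its log2 FC was -1.14 (SE 0.221, adjusted p = 0.0779). The nuclear receptor gene Nr4a1 was at 70.3, 47.3 and 28.9 CPM against 21.2, 23.2 and 12.96 CPM, with a log2 FC of -1.35 (adjusted p = 0.123). Fosb, a subunit of AP-1, had nearly the same level in the young pools, 17.5, 17.4 and 17.8 CPM, and 5.71, 10.4 and 7.41 CPM in the old pools. Its log2 FC was -1.17 (adjusted p = 0.141). For Egr1, another zinc finger factor, the log2 FC was -0.76 (adjusted p = 0.123), with 190 to 228 CPM in 6 m AL and 102 to 135 CPM in 28 m AL. Jun had a log2 FC of -0.82 without overlap, and that of the kinase gene Sik1 was -1.14 with overlapping pools. The smallest differences were those of Dusp6 (-0.24), a phosphatase gene of the ERK pathway, and Egr2 (-0.31).

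An EGR site, searched as GCGNGGGCG on either strand, was found in the promoters of Nr4a1, Sik1 and Btg2. These are 3 of the 9 immediate early genes with a promoter in the table (33.3%), against 4.98% of all promoters. The site was also in 2 of the 8 promoters of clock genes (25%), and in 0 of the 6 of heat shock genes. The clock genes with it were Bhlhe41 (log2 FC -0.15) and Rora (0.15). Egr3, Arc and Jun are not in the table. The stretches of Nr4a1 (chr7:134260029-134260109, plus strand) and Sik1 (chr20:9958754-9958834, minus strand) are given as examples of members with an unadjusted p under 0.05. Capitals mark the site, which begins 73 and 152 bases before the start and in Nr4a1 reads on the opposite strand.
Nr4a1: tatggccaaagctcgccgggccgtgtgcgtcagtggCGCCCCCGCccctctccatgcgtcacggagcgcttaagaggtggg
Sik1: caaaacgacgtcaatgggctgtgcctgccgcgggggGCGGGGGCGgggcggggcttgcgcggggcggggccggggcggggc
A cAMP response element, TGACGTCA, was found in the promoter of Btg2 alone among the 9, against 1.83% of all promoters.

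Of the clock genes, Hlf fell and Nr1d1 and Bhlhe40 had separate pools without passing the threshold. Hlf encodes a PAR bZIP factor that carries the output of the clock. It was at 27.9, 19.1 and 20.4 CPM in 6 m AL and at 2.86, 9.28 and 5.32 CPM in 28 m AL, so each old pool was below each young one. It fell by 1.98 on the log2 scale (SE 0.357, adjusted p = 0.0475). Nr1d1 encodes Rev-erb-α, a repressor in the clock loop, and was at 32.9, 32.3 and 21.5 CPM against 9.79, 12.8 and 15.1 CPM. Its log2 FC was -1.20 (SE 0.26, adjusted p = 0.123). For Bhlhe40, the gene of the E-box repressor DEC1, the values were 78.3, 73.1 and 97.8 CPM against 52.2, 60.6 and 49.3 CPM, with a log2 FC of -0.62 (adjusted p = 0.221). Of the 8 tested members 7 were below 0, 3 of them at an unadjusted p under 0.05 (17% of the named genes were lower), and the median was -0.33. The output gene Dbp, which belongs to the same family as Hlf, had a log2 FC of -0.17 (unadjusted p = 0.572), and the period gene Per3 one of -0.37. The time of day of each dissection was not given in the labels, and its part in these values was not tested.

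The E-box was searched as CACGTG, which reads the same on both strands. Of the 8 promoters of 7 clock genes, 3 held one (37.5%), those of Bhlhe40, Bhlhe41 and one of the Nr1d1 starts, against 6.42% of all promoters, and Hlf is not in the table. The stretches of Nr1d1 (chr10:84229604-84229681, minus strand) and Bhlhe40 (chr4:143174200-143174271, plus strand) are shown because these are the members with separate pools. Capitals mark the E-box, which begins 191 and 220 bases before the start.
Nr1d1: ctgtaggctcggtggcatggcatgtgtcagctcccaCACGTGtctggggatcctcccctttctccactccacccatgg
Bhlhe40: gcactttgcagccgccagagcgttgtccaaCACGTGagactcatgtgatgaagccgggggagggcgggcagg
A D-box, TTATGTAA, was in none of the promoters of the 3 lists and in 0.893% of all promoters.

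At the synapse, 1 gene was DE. Shank1 encodes a scaffold of the postsynaptic density, and was at 177, 154 and 126 CPM in 6 m AL and at 41.6, 85.6 and 42.4 CPM in 28 m AL. It fell by 1.43 (SE 0.251, adjusted p = 0.0373). Pool 8 was the highest of the old pools, and in the 3 pools that were low in cerebellum markers (described below) the log2 FC was -0.82. Of the 10 postsynaptic genes tested, 4 had an unadjusted p under 0.05 and were lower and 1 was higher (17% and 11.7% of the named genes), and the median was -0.21. Shank3, a second scaffold of the family, had a log2 FC of -0.97 (adjusted p = 0.123), and Homer2, which links Shank proteins to metabotropic receptors, one of -1.35 (adjusted p = 0.155). The pools of the 2 ages were separate in both. Homer3, of the same family as Homer2, differed the other way, with a log2 FC of 0.85 and overlapping pools (adjusted p = 0.407).

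On the presynaptic side no gene passed the threshold. Stx1a, a plasma membrane SNARE gene, was at 42.1, 28.9 and 29.7 CPM in 6 m AL and at 12.9, 22.3 and 12.04 CPM in 28 m AL (log2 FC -1.10, SE 0.269, adjusted p = 0.14). The active zone gene Bsn was at -0.64 and the calcium sensor gene Syt1 at -0.61, all with separate pools. Of the 14 members tested, 5 had a log2 FC above 0, among them Napb, which encodes β-SNAP, a cofactor of SNARE disassembly. Napb was at 67.7, 83.0 and 83.8 CPM in 6 m AL and at 122, 127 and 138 CPM in 28 m AL, with a log2 FC of 0.73 (adjusted p = 0.123). At an unadjusted p under 0.05, 6 of the 14 were lower and 1, Napb, was higher (17% and 11.7% of the named genes), with a median of -0.32.

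Receptors, channels and secretory granule genes were mixed in direction. Of 9 glutamate receptor genes, the kainate receptor gene Grik4 had a log2 FC of -1.02 with separate pools (adjusted p = 0.18), while Grik2 and the AMPA receptor gene Gria4 were at 0.47 and 0.57 with overlapping pools. In the 3 pools low in cerebellum markers these last values were 0.12 and 0.077. None of the 4 tested GABA genes had an unadjusted p under 0.05. Of 12 ion channel genes, 3 were lower at an unadjusted p under 0.05 (17% of the named genes), namely Hcn2 (-0.85), a pacemaker channel, and the T-type calcium channels Cacna1i (-0.82) and Cacna1g (-0.43), and the A-type potassium channel Kcnd2 was higher (0.62). The pools of Kcnd2 overlapped, and in the 3 pools low in cerebellum markers its log2 FC was 0.12. Chgb, which encodes the granule protein chromogranin B, was at 120, 143 and 152 CPM against 76.5, 87.9 and 86.1 CPM, with a log2 FC of -0.72 (adjusted p = 0.127). The peptides Cck, Npy, Sst and Vip lay between -0.0044 and 0.29, and Penk was at -0.33 with overlapping pools. Of the 10 tested identifiers of this list, 3 were lower and 0 higher at an unadjusted p under 0.05 (17% and 11.7% of the named genes). The median was -0.015.

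Genes of chromatin regulators had mostly negative values. Of 15 tested, 10 were lower at an unadjusted p under 0.05 and 1 was higher (17% and 11.7% of the named genes, 6.13% and 5.3% of all genes), none was DE, and the median was -0.83. Mbd6, a methyl-CpG-binding domain gene, was at 17.04, 9.18 and 11.4 CPM in 6 m AL and at 3.67, 3.77 and 3.01 CPM in 28 m AL (log2 FC -1.84, SE 0.362, adjusted p = 0.0779). The histone H3 lysine 4 methyltransferase genes Mll2 and Setd1b had log2 FCs of -0.83 and -1.31, and the chromatin remodeller gene Chd5 was at -0.88 (adjusted p = 0.123 for each). The list also held the lysine 79 methyltransferase gene Dot1l (-1.22) and the DNA demethylation gene Tet3 (-0.87), both with separate pools. The 1 higher gene was Kdm6a, an H3 lysine 27 demethylase gene, at 59.6, 59.5 and 54.1 CPM against 77.7, 72.5 and 77.1 CPM (log2 FC 0.40, adjusted p = 0.384). Its relative Kdm6b was at -0.88 (adjusted p = 0.32). Chd7 and Kdm4b were also above 0, at 0.28 and 0.13 with overlapping pools. In the 3 pools low in cerebellum markers the median of the list was -0.47.

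Cytosolic ribosomal protein genes had mostly positive values. Of 43 tested identifiers, 23 had an unadjusted p under 0.05 and all 23 were higher in 28 m AL, against 11.7% of the named genes and 5.3% of all genes, and none was DE. The median log2 FC was 0.49. Several of these identifiers share a symbol, as near-identical copies of one gene do, so their levels are uncertain in the same way and the identifiers are not 43 separate genes. Rpl32 is an example, with 24.8, 26.9 and 20.4 CPM against 58.0, 49.0 and 44.9 CPM under ENSRNOG00000010746 (log2 FC 1.08, SE 0.204, adjusted p = 0.0638), and with 0.91 under its second identifier. Rps7 was at 64.8, 54.8 and 67.6 CPM against 147, 92.8 and 110 CPM (log2 FC 0.91, adjusted p = 0.123). The summed level of the list was 2701 to 2969 CPM in 6 m AL and 2747 to 3900 CPM in 28 m AL, so the sums overlapped although the median was above 0.

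Nuclear genes of the respiratory chain went in the same direction with smaller values. Of 27 tested, 10 were higher and none lower at an unadjusted p under 0.05 (11.7% and 17% of the named genes), none was DE, and the median was 0.30. Cox5b, a subunit of cytochrome c oxidase, was at 65.1, 47.6 and 58.6 CPM in 6 m AL and at 96.7, 96.6 and 118 CPM in 28 m AL (log2 FC 0.86, SE 0.182, adjusted p = 0.114). Ndufv2 of complex I was at 57.0, 56.8 and 59.7 CPM against 102, 87.9 and 95.6 CPM (log2 FC 0.73, adjusted p = 0.123), and Cox6c was at 0.65 and Uqcrq of complex III at 0.62. The 3 tested genes encoded in the mitochondrion lay on the other side of 0 with overlapping pools, from -0.41 for COX2 to -0.052 for ATP8. In the 3 pools low in cerebellum markers the median of the nuclear genes was 0.12.

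**Figure D2:**
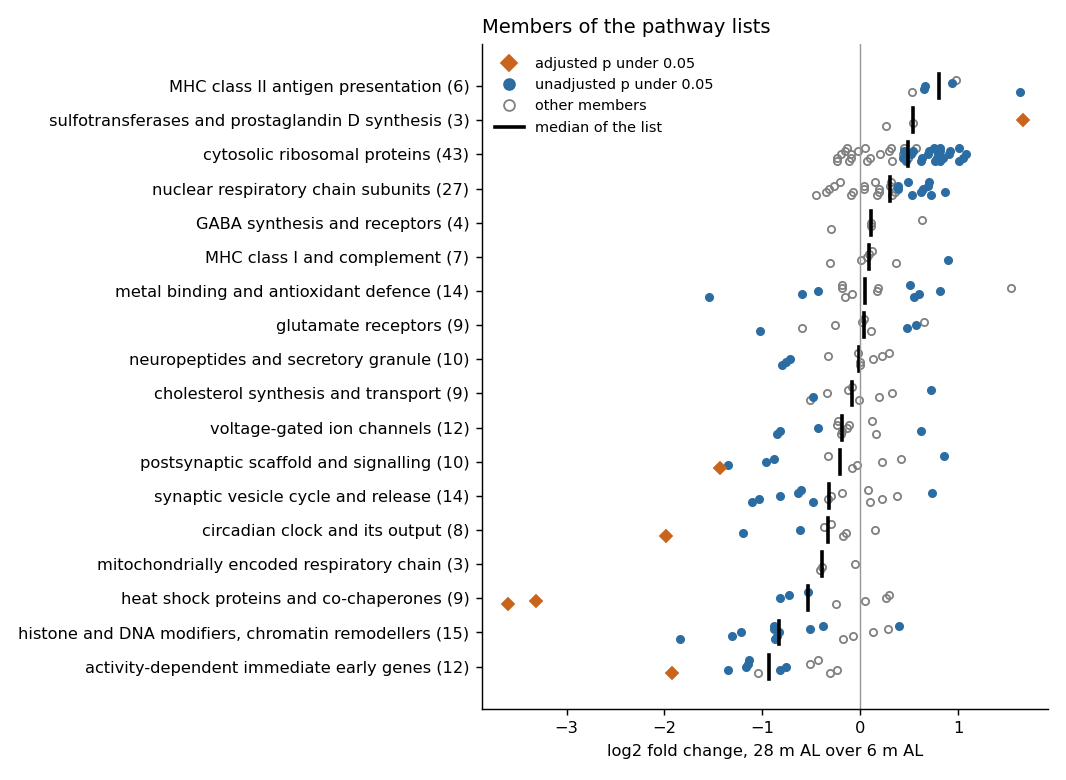
Log2 FC (28 m AL over 6 m AL) of each tested member of the pathway lists, with the number of members in brackets, ordered by the list's median (black bar). Diamonds are DE genes, filled circles have an unadjusted p under 0.05. The immediate early genes are all left of 0 and the MHC class II genes all right of it.

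Antigen presentation genes of MHC class II were all above 0 but none was DE. All except Ctss had their highest mean of the 3 AL ages at 12 months and not at 28 months (levels given below). The log2 FCs of the 6 tested members ran from 0.53 for the invariant chain gene Cd74 to 1.63 for RT1-Db1, with a median of 0.80, and 4 had an unadjusted p under 0.05 (11.7% of the named genes were higher). The median was 0.50 without pool 8 and 1.35 in the 3 pools low in cerebellum markers, of which pool 8 is the only old one. RT1-Db1, a class II β chain, was at 4.26, 6.12 and 2.92 CPM in 6 m AL and at 10.8, 18.3 and 11.8 CPM in 28 m AL (SE 0.367, adjusted p = 0.123). Ctss, the cathepsin that trims the invariant chain, was at 138, 154 and 133 CPM against 218, 245 and 207 CPM (log2 FC 0.66, SE 0.163, adjusted p = 0.141). Pool 8 was the highest of the old pools for both. In the list of MHC class I and complement, 1 of 7 genes had an unadjusted p under 0.05, near the 11.7% of the named genes that were higher. It was C1qc, the C chain of complement C1q (0.89, adjusted p = 0.303).

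Among the cell type markers 1 was DE. Gfap, the intermediate filament of astrocytes, was at 422, 384 and 347 CPM in 6 m AL and at 140, 203 and 171 CPM in 28 m AL. It fell by 1.16 on the log2 scale (SE 0.178, adjusted p = 0.029). The water channel gene Aqp4 was at 789, 886 and 1105 CPM against 664, 614 and 670 CPM (log2 FC -0.51, adjusted p = 0.282). The connexin gene Gjb6 was at 69.8, 81.3 and 77.1 CPM against 101, 97.7 and 98.6 CPM, with a log2 FC of 0.39 (adjusted p = 0.389). Vim and Fgfr3 were at 0.28 and 0.20, so the 5 tested astrocyte markers were not on 1 side of 0. Gjb6, Vim and Fgfr3 each had old pools above all young pools. The summed level of these 5, mostly that of Aqp4 and Gfap, was 1386 to 1631 CPM in 6 m AL and 1027 to 1063 CPM in 28 m AL.

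The 7 tested microglia markers summed to 191 to 227 CPM in 6 m AL and 275 to 337 CPM in 28 m AL. Ctss, which is also in the MHC class II list, made up most of that sum. Without it the other 6 markers summed to 82.8, 73.1 and 58.1 CPM in pools 1, 2 and 3 and to 65.5, 92.5 and 68.3 CPM in pools 7, 8 and 9, which overlap. Of all markers 3 of the 7 had a log2 FC above 0, with Tyrobp, a signalling adaptor, at 0.95 with overlapping pools. The homeostatic marker Tmem119 was at -0.46. The part of microglia number in the values of the MHC class II list was not tested. Oligodendrocyte markers were at 407 to 542 CPM in 6 m AL and 328 to 407 CPM in 28 m AL. The log2 FCs of Opalin, Mog and Cldn11, all genes of myelin or its cells, lay between -0.40 and -0.17. The 3 tested excitatory neuron markers summed to 157 to 231 CPM against 102 to 138 CPM, mostly through Nrgn, a postsynaptic calmodulin-binding protein gene, at -0.97 (adjusted p = 0.123), while Neurod6 and Fezf2 were at -0.034 and 0.097. Blood markers, haemoglobin genes and Alb, ran from 76.9 CPM in pool 2 to 228 CPM in pool 1, and overlapped between the ages.

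Markers of neighbouring brain regions differed widely between pools of the same age. The 6 cerebellum markers Neurod1, Cbln1, Car8, Zic2, Gabra6 and Fat2 summed to 46.9, 855 and 50.9 CPM in pools 1, 2 and 3 and to 1313, 42.1 and 1270 CPM in pools 7, 8 and 9, against a median of 46.0 CPM and a range of 31.8 to 1891 CPM in the other 33 libraries. Pool 2 of the young and pools 7 and 9 of the old animals therefore held reads of cerebellar genes. The striatum markers Pde10a and Penk were highest in pool 1, with 362 CPM against 72.6 to 170 CPM in the other 5 pools, and the thalamus markers in pool 3, with 489 CPM against 156 to 279 CPM. None of the markers of these regions had an unadjusted p under 0.05. The part of tissue composition in the results was not tested beyond the fits given next.

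**Figure D3:**
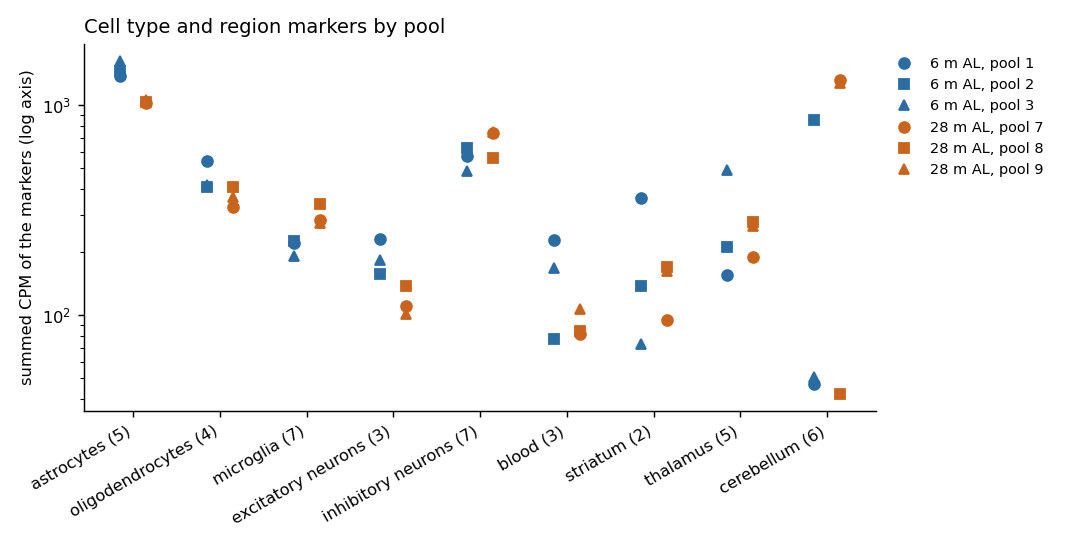
Summed CPM (log axis) of the markers of cell types and brain regions in each of the 6 pools, with the number of markers in brackets. The cerebellum sum is 855 to 1313 CPM in pools 2, 7 and 9 and 42.1 to 50.9 CPM in pools 1, 3 and 8. The astrocyte sums, mostly Aqp4 and Gfap, do not overlap between the ages.

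The calls depended on these same pools. All 17 DE identifiers were also called without pool 1, without pool 3 or without pool 8, where 39, 41 and 74 genes were DE in all. None of the 17 was called without pool 2, without pool 7 or without pool 9, where 0, 1 and 0 genes were DE (unadjusted p under 0.05 for 1797, 949 and 1187 genes). With the mean level of the cerebellum markers as a covariate 9 genes were DE, 7 of them among the 17, namely both Hspa1b identifiers, Tshz2, Gfap, Sult1a1, Shank1 and the unnamed ENSRNOG00000021159. In the 3 pools low in these markers, 2 young and 1 old, 1 gene was DE and not one of the 17. All 17 kept their sign in each of these fits. They were chosen from these same pools, which do not overlap between the ages for any of them, so a kept sign is not independent evidence. In the 3 low pools the log2 FC was -2.46 and -2.24 for the Hspa1b identifiers, -1.49 for Tshz2, -0.92 for Gfap and 1.75 for Sult1a1.

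**Figure D4:**
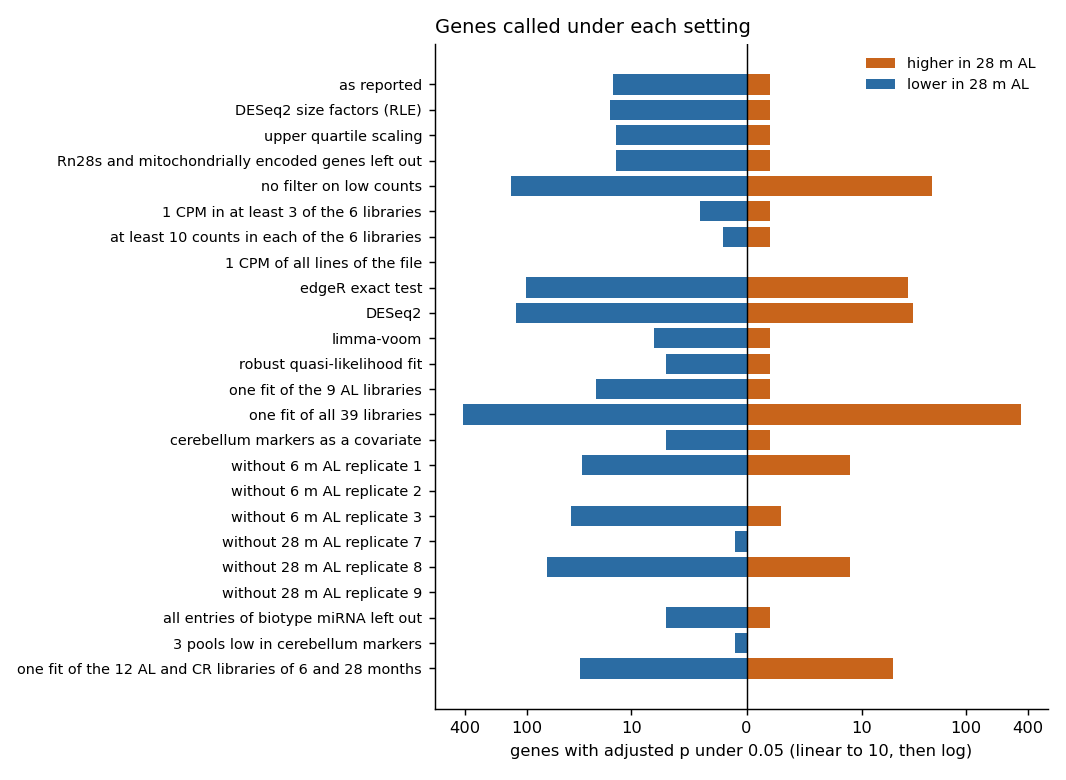
Number of DE genes under each setting, lower in 28 m AL to the left (blue) and higher to the right (orange), on an axis that is linear to 10 and logarithmic beyond. The count is 17 as reported, 757 in one fit of all 39 libraries and 0 without pool 2 or pool 9.

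When all 39 libraries shared one fit, and with it one estimate of the spread, many of the genes described above passed the threshold. Their log2 FCs stayed nearly the same because they still came from the same pools of 6 m AL and 28 m AL. An equal log2 FC is therefore not independent evidence. The other 33 libraries entered that fit mainly through the spread, and their median cerebellum sum was 46.0 CPM (range 31.8 to 1891 CPM). That fit called 757 genes (4.39%), 337 higher (1.96%) and 420 lower (2.44%) in 28 m AL, and among the named genes 5.26% were higher and 11.7% lower. In it the heat shock list had 4 lower members (both Hspa1b identifiers, Hsph1 and Dnajb5), the immediate early list 3 (Egr3, Arc and Egr1), the clock list 2 (Hlf and Nr1d1), the postsynaptic list 4 and the chromatin list 7. Of the vesicle genes 5 were lower and Napb was higher. The ribosomal protein list had 19 higher members and none lower, the respiratory list 4 higher, and the MHC class II list 1, Ctss. Rn28s did not pass in this fit (log2 FC -1.49, adjusted p = 0.0931).

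Other DE genes belong to none of the lists described so far. Tshz2, a zinc finger homeobox factor gene, was at 35.3, 30.95 and 42.95 CPM in 6 m AL and at 9.59, 13.9 and 9.03 CPM in 28 m AL, and fell by 1.75 (SE 0.248, adjusted p = 0.029). Hivep3, which encodes a large zinc finger protein that binds κB motifs, was at 56.6, 42.5 and 50.6 CPM against 18.6, 23.2 and 21.99 CPM, and fell by 1.23 (SE 0.205, adjusted p = 0.0312). Both had old pools that lay close together. Sult1a1, a phenol sulfotransferase gene, was at 8.05, 8.50 and 12.7 CPM against 27.3, 35.1 and 30.1 CPM, and rose by 1.66 (3.16-fold, SE 0.256, adjusted p = 0.029). Its relative Sult1d1 had a log2 FC of 0.54 with overlapping pools. Both are in the list of sulfotransferases and prostaglandin D synthesis, with Ptgds (0.27, overlapping pools) as the only other member tested. Of these 3 members, 1, Sult1a1, had an unadjusted p under 0.05 (11.7% of the named genes were higher). The identifier ENSRNOG00000021159, a protein-coding gene with no name in the tables used, was at 74.8, 60.9 and 42.7 CPM against 145, 141 and 157 CPM (log2 FC 1.32, SE 0.201, adjusted p = 0.029).

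Antioxidant and cholesterol genes were divided. Of 14 genes of metal binding and antioxidant defence, 4 were higher and 3 lower at an unadjusted p under 0.05, against 11.7% and 17% of the named genes. The ferritin light chain Ftl was at 11.1, 11.9 and 12.5 CPM against 2.65, 6.67 and 3.01 CPM (log2 FC -1.55, adjusted p = 0.141), and the ferritin heavy chain Fth1 was at -0.44, while the metallothioneins Mt3 and Mt2A were at 0.55 and 0.81 and the superoxide dismutase Sod1 at 0.51. Of 9 cholesterol genes, the lysosomal transporter Npc2 was higher (0.72) and the squalene synthase Fdft1 lower (-0.49) at an unadjusted p under 0.05. The shares of the named genes were again 11.7% higher and 17% lower. The only named members tested of the senescence list and of the insulin and mTOR list were Cdkn1a (-0.56), Irs1 (-0.15) and Pik3r1 (-0.35), all with an unadjusted p above the threshold. No member of the lists of oligodendrocyte precursors and hippocampus has a name in these tables.

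At 12 months the AL rats (3 pools, one of them with only 494091 reads on genes) were not uniformly between the other ages. Gfap was at 633 ± 62.9 CPM (SD, n = 3 pools), above its 384 ± 37.8 CPM at 6 months and 171 ± 31.3 CPM at 28 months. Tshz2 was at 36.3 ± 12.1 CPM and Hivep3 at 40.3 ± 14.2 CPM, nearer to their 6-month means of 36.4 ± 6.08 and 49.9 ± 7.04 CPM than to those at 28 months. Both Hspa1b identifiers were at 3.22 ± 2.80 and 6.29 ± 3.37 CPM, near their 28-month means of 3.06 ± 1.12 and 3.57 ± 0.694 CPM. Rn28s was at 24480 ± 6398 CPM, its highest mean of the 3 ages. Of the MHC class II genes, RT1-Db1 was at 53.84 ± 14.39 CPM, against 13.63 ± 4.049 CPM at 28 months. RT1-Da was at 90.71 ± 53.88 CPM against 15.64 ± 4.831 CPM, and RT1-Ba at 94.51 ± 20.56 CPM against 21.84 ± 6.663 CPM. RT1-Bb and Cd74 also had a higher mean at 12 than at 28 months. Ctss went the other way, with 169.8 ± 17.01 CPM against 223.2 ± 19.53 CPM. These levels are given as a description, without a test.

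A term for age by diet, fitted to 12 libraries (3 pools for each of 2 ages of AL and CR), tested whether the change with age differed between diets. In CR alone 9 genes were DE from 6 to 28 months (0.0522%), and 4.87% of genes had an unadjusted p under 0.05. The interaction passed the threshold for 2 genes (0.0116%), and 1424 genes (8.26%) had an unadjusted p under 0.05. Gfap is 1 of the 2. In CR it was at 318 ± 83.7 CPM at 6 months and 523 ± 157 CPM at 28 months, a log2 FC of 0.72 (adjusted p = 0.65), and the interaction was 1.88 on the log2 scale (SE 0.292, adjusted p = 0.0456, edgeR QL test). The other gene past the threshold is Dbndd2, a dysbindin domain gene named here after its values were seen. Its AL levels were 68.1 ± 9.91 CPM at 6 months and 34.97 ± 3.37 CPM at 28 months, against 70.1 ± 8.50 and 92.6 ± 6.82 CPM in CR, with an interaction of 1.36 (SE 0.223, adjusted p = 0.0484).

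For the other genes DE in AL the difference between diets did not pass the threshold. Tshz2 had a log2 FC of 0.12 in CR, and its interaction of 1.88 had an adjusted p of 0.0774. The levels of several genes in the restricted rats were already low at 6 months, which a fold change does not show and which is given here without a test. Shank1 was at 30.7 ± 1.88 CPM in 6 m CR against 152 ± 25.3 CPM in 6 m AL, and at 33.96 ± 8.86 CPM in 28 m CR. Hlf was at 9.84 ± 1.56 CPM and Egr3 at 8.18 ± 5.05 CPM in 6 m CR, against 22.5 ± 4.78 and 20.8 ± 5.07 CPM in 6 m AL. Hspa1b was DE in both diets, and fell by 2.17 and 1.82 in CR (adjusted p = 0.00157 and 0.0193), with interactions of 1.44 and 1.50 (adjusted p = 0.607 and 0.598).

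**Figure D5:**
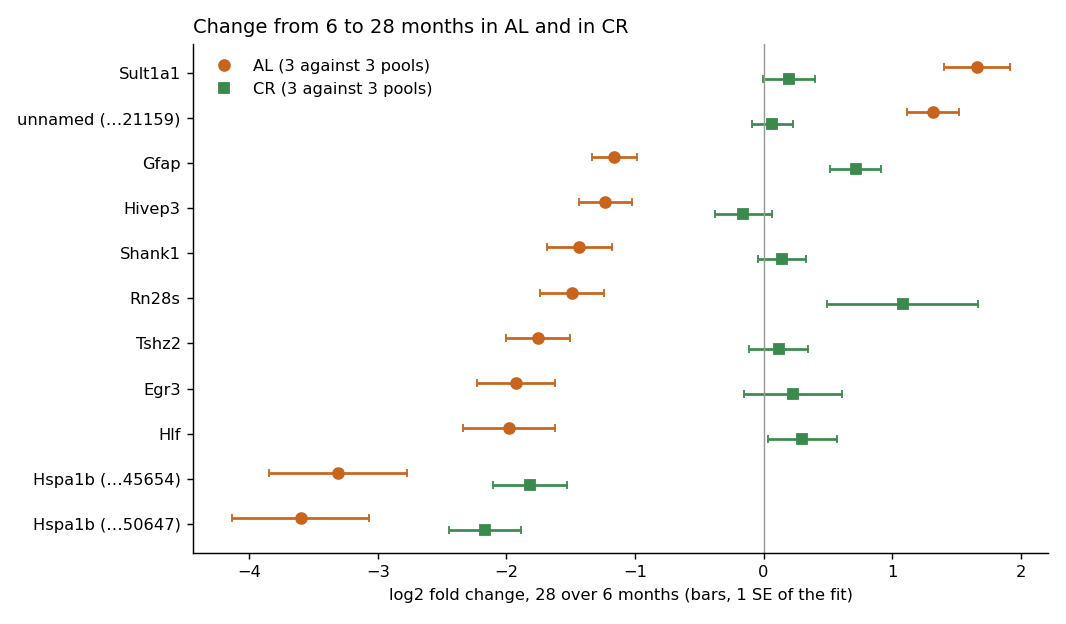
Log2 FC from 6 to 28 months in AL (circles) and in CR (squares), with bars of 1 SE of the fit (3 pools per age and diet). Shown are the 10 identifiers DE in AL without the biotype miRNA, and Rn28s. Both Hspa1b identifiers are below 0 in both diets, and Gfap is at -1.16 in AL and 0.72 in CR.

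Among the lists, MHC class II genes had higher log2 FCs in CR than in AL. All 6 were higher at an unadjusted p under 0.05 in CR. Of all genes 2.19% were higher and 2.68% lower at this p, and of the 1672 named genes 93 were higher and 70 lower. The median of the 6 was 2.83 in CR, against 0.80 in AL. An unadjusted interaction p under 0.05 was found for 5 of the 6 (8.26% of all genes and 24.1% of the named genes). The immediate early genes had a median of 0.094 in CR against -0.94 in AL, and 6 of 12 had an unadjusted interaction p under 0.05. For the chromatin genes the medians were -0.045 and -0.83, with 7 of 15, and for the vesicle genes 0.16 and -0.32, with 6 of 14. For the ribosomal protein genes they were 0.13 and 0.49, and the 12 of 43 with such a p are near the share of the named genes. A median fold change does not show the level at 6 months, which was not tested. In 6 m AL, 28 m AL and 6 m CR, the chromatin gene Mll2 had means of 176, 98.8 and 73.8 CPM. In the same groups Chd5 had 148, 80.4 and 84.4 CPM, and Rps7 had 62.4, 117 and 136 CPM. Arc, by contrast, had 254, 114 and 203 CPM. None of the members of these lists passed the threshold for the interaction after adjustment. The AL libraries used here lost 27.5% to 33.2% of their reads at alignment and those of CR at 6 and 28 months 38.1% to 40.8%, so a difference between diets and one between sets of libraries cannot be told apart. The cerebellum marker Gabra6 was at 115 ± 193 and 374 ± 325 CPM in 6 m AL and 28 m AL. In 6 m CR and 28 m CR it was at 6.25 ± 5.41 and 0.645 ± 0.369 CPM. All tested cerebellum markers had lower means in CR than in AL at both ages, and their part in the interaction was not tested.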

How the data were processed

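The authors depleted total RNA of ribosomal RNA, sequenced it as forward reads on a SOLiD system, aligned the reads in colour space with Bowtie to rn5 (Rnor_5.0) without multiply mapping reads, and assigned reads to Ensembl genes with HTSeq (versions not given in the sources used here). The deposited values are raw counts per gene and pool, without normalization. The last 5 lines of each file, which name no gene, were left out, and 79.9% to 82.6% of the aligned reads of the 6 libraries were assigned to no gene. A gene was tested if 3 or more of the 39 libraries had 1 CPM or more of it, relative to reads on genes (17230 of 26123 genes). Counts were tested in R 4.3.3 with edgeR 4.0.16 (TMM scaling, quasi-likelihood test, two-sided, Benjamini-Hochberg adjustment, threshold 0.05) on the 6 libraries alone, and the interaction on 12. The standard error is the size of the log2 fold change divided by the square root of F. Levels are CPM scaled over all 39 libraries. The fit was also tested on simulated data, in which it found a minority of the changed genes, each with the right sign, and more of its calls were false than the threshold allows for. Alternatives included other scalings and filters, the exact test, DESeq2 1.42.0, limma-voom (limma 3.58.1), wider fits and leaving out each pool.

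Gene names came from the supplementary tables of the study (1672 names, 1621 found in RefSeq), and the comparison columns of those tables were not used. Genes named are the DE genes with a name, the up to 4 members of each list with the smallest p, genes the study discusses for ageing, and Rn28s. A few further list members are named to show both ends of a list and were chosen after their values were seen. The comparison and the gene lists were chosen with earlier results of these data known. The p-values measure the spread between pools. A few genes covered by the naming rule are not reported here.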

Additional observations from a re-analysis of the deposited data

Results flagged for a closer look

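The interaction of age and diet was past the threshold for 2 genes. By this test of the difference itself, their change from 6 to 28 months differed between the AL and CR libraries. These libraries also differed in alignment and in cerebellum markers, so diet and set of libraries cannot be told apart. For Gfap the interaction was 1.88 on the log2 scale (CR minus AL, adjusted p = 0.0456), with a lower level at 28 months in AL and a higher mean in CR. For Dbndd2 it was 1.36 (adjusted p = 0.0484), in the same sense. Both adjusted p lay close to the threshold, and without 1 AL pool the number of such genes was between 0 and 9. Groups of 3 pools are too small for a check of single outlying pools.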

How the results depend on the processing

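The number of DE genes was 17 as reported (88.2% lower). It was 18 with DESeq2 size factors, 16 with upper quartile scaling, 16 without Rn28s and the mitochondrially encoded genes and 24 in one fit of the 9 AL libraries. It was 190 (75.3% lower) without a filter, 6 (66.7%) with 1 CPM in 3 of the 6 libraries, 4 (50%) with 10 counts in each and 0 with CPM over all lines of the file (1614 genes at an unadjusted p under 0.05). By tool it was 132 (78.8%) with edgeR's exact test, 158 (80.4%) with DESeq2, 10 (80%) with limma-voom and 9 (77.8%) with a robust quasi-likelihood fit. It was 757 (55.5% lower) in one fit of all 39 libraries, which shared 10 of the 17, and 9 with cerebellum markers as a covariate. Settings chosen after seeing the data gave 9 without all identifiers of biotype miRNA, 1 in the 3 pools low in cerebellum markers and 51 (60.8%) in one fit of 12 libraries. Leaving out 1 pool gave 0 to 74 genes. In the 3 low pools, 28 m AL is 1 sample, assumed to vary like the others. For the interaction, 2 genes became 36 in one fit of all 39 libraries and 0 to 9 without 1 AL pool (0 without pools 1, 2, 7 or 9, 4 without pool 3 and 9 without pool 8). The cause of these moves was not tested.

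None of the 73 identifiers that were DE or chosen by the naming rule and had an unadjusted p under 0.05 changed sign in any setting. Each setting reuses all or some of the libraries that gave this p, so a kept sign is not independent evidence. The medians of the heat shock, immediate early, clock, MHC class II, vesicle, postsynaptic, chromatin, respiratory and ribosomal protein lists kept their sign in all 23 settings. Leaving out 1 pool moved 3 of these medians by over 1.5 times, from -0.54 to -0.33 for heat shock (without pool 3), from 0.80 to 0.50 for MHC class II (without pool 8) and from 0.30 to 0.15 for the respiratory list (without pool 7). The medians of the glutamate, GABA, neuropeptide, microglia and antioxidant lists changed sign in 2, 1, 1, 7 and 2 settings. No paired analysis was possible because pool numbers run from 1 to 39 and no number occurs in more than 1 group. With 3 pools against 3, an exact permutation test of a single gene cannot go below p = 0.1.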
